A study of Mus musculus with 4 samples.

Results

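The transcripts described here are the constant regions of the immunoglobulin heavy chains (Ighm, Ighd, Ighg1, Ighg2b, Ighg2c, Ighg3 and Igha), the constant regions of the light chains Igkc and Iglc1, and Jchain. They are 10 of the 32285 genes in the deposited tables and were chosen by symbol from a list, with earlier results of these data known. Blood mononuclear cells were taken from mice of the BL/6 and SM/J strains, aged 12 or 20 months, and profiled by 10x Genomics 3' single-cell RNA sequencing. Cells of both ages of a strain were tagged and sequenced as 1 library, which the deposited tables split by age. The 4 resulting datasets are BL/6 at 12 months, BL/6 at 20 months, SM/J at 12 months and SM/J at 20 months, with no treatment or engineered allele named in the labels. Each dataset holds cells of 3 tags, called tag subsets here, and what a tag stands for is not given in the sources used here. The tag subsets are therefore not used as replicates, no test was made, and every interval below is a 95% interval for counting error only. Since each strain was its own 10x run, the effects of strain and of run cannot be told apart.

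A B cell transcribes 1 rearranged heavy chain locus and 1 kappa or lambda light chain locus. Naive B cells splice the same primary transcript to Ighm or Ighd and so carry IgM and IgD together, while class switching joins the rearranged segment to a downstream IgG, IgE or IgA constant region and ends IgM and IgD production. Plasma cells make the secreted form in bulk, and J chain is the small protein that links IgM pentamers and IgA dimers. In the mouse most B cells use kappa, and B-1 cells are known for high IgM and low IgD.

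In the mm10 (GRCm38) build the heavy chain genes lie on the minus strand of chromosome 12, in the order of their use. Ighm spans 113418558 to 113422730 and Ighd spans 113406604 to 113416324. Ighg3 follows at 113356224 to 113361232, Ighg1 at 113325240 to 113330523, Ighg2b at 113302965 to 113307933 and Ighg2c at 113285325 to 113288932. Igha, the last, spans 113254830 to 113260236. Igkc is on the plus strand of chromosome 6 (70726435 to 70726966), Iglc1 on the minus strand of chromosome 16 (19061618 to 19062071) and Jchain on the minus strand of chromosome 5 (88519809 to 88527891).

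Light chain class is read from Igkc against the lambda constant regions, and near-identical copies can share reads. Iglc2 and Iglc3, which complete the mouse lambda set, had 96.5% identical coding bases, whereas Iglc1 was 74.8% identical to Iglc2 and 75.4% identical to Iglc3. The last 150 coding bases of each are shown because they are near the 3' end that the assay reads. Capitals in Iglc1 mark bases that differ from Iglc2 or Iglc3, and capitals in the other two mark bases that differ from Iglc1.
Iglc1: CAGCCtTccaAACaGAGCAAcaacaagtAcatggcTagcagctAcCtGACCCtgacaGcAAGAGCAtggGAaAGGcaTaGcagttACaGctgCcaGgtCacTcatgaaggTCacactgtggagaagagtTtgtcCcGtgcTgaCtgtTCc
Iglc2: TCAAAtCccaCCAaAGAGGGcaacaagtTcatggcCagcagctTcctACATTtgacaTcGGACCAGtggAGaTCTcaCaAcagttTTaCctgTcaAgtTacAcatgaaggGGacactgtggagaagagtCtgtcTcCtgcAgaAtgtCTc
Iglc3: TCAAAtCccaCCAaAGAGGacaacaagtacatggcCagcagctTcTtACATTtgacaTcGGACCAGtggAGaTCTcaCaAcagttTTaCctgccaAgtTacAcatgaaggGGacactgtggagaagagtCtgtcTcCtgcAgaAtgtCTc
Over these bases Iglc1 differed from Iglc2 at 54 positions and from Iglc3 at 52, while Iglc2 and Iglc3 differed at 4. Counts of Iglc1 are thus separable from the other two by sequence, and the split between Iglc2 and Iglc3 is uncertain. The IgG genes were 75.7% to 85.9% identical in coding bases, with Ighg2b and Ighg2c the most alike.

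The datasets kept 3398, 3102, 2407 and 2689 cells in the order above, with median depths of 4060, 4914, 4729 and 8837 UMIs. Cells with B cell markers such as Cd79a, Cd79b, Ms4a1, Cd22, Pax5, Bank1 and Ebf1, called B cell-like, numbered 2004, 955, 1285 and 1638, and 8 of the 26 clusters were of this class. None of the 10 genes was used for clustering or naming. Their median depths were 3631, 3430, 4204 and 9678 UMIs. The clusters that hold the class differed between strains, and a cluster found mostly in 1 dataset may be that dataset rather than a type. Clusters 0 (Fcer2a and Cr2 leading), 4 (Agbl1, Fcrl5) and 7 (Agbl1, Vpreb3) held most BL/6 B cells. Clusters 8 (Cpne4, Fcer2a), 14 (Lmo7, Sox5), 23 (Fras1, Pigr, Epcam) and 25 (Zcwpw1) held most SM/J B cells, with cluster 18, led by cell division genes. Cluster 23 had 413 cells at 12 and 91 at 20 months, and cluster 25 had 15 and 872. Clusters 23 and 25 held no BL/6 cell.

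Free RNA set the level below which a value was read as background. T cell-like cells, which make no immunoglobulin, held 83.3, 88.9, 150 and 158 CPM of Ighm in the 4 datasets (CPM scales UMIs to a common total per class and dataset) and 61.9, 66.0, 183 and 224 CPM of Igkc. B cell-like cells exceeded T cell-like cells at least 16.7 times for Ighm and at least 22.3 times for Igkc in every dataset. Igha was the exception in BL/6 at 12 months. There, 22.96 CPM in B cell-like cells (19.9 to 26.4) stood beside 15.7 CPM in T cell-like cells (11.2 to 21.4). Monocyte-like cells held 13.2 CPM, with 17.7 in the classical and 7.28 in the nonclassical ones. A UMI of Igha was seen in 8.93% of these B cells (median 3631 UMIs) and in 8.58% of the T cells (median 5074 UMIs), or in 2.55% and 1.58% after thinning each cell to 1000 UMIs. The B cell level was thus less than 2 times that of T cells or of all monocyte-like cells, but over 3 times that of the nonclassical ones, and it is read as close to background. Jchain in the same dataset was likewise close to background, with 4.18 CPM in B cell-like and 3.62 CPM in T cell-like cells. A monocyte cluster of 55 cells that also carried B cell genes (2062 CPM of Ighm in its 39 SM/J cells at 12 months) was left out of the monocyte background.

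**Figure D1:**
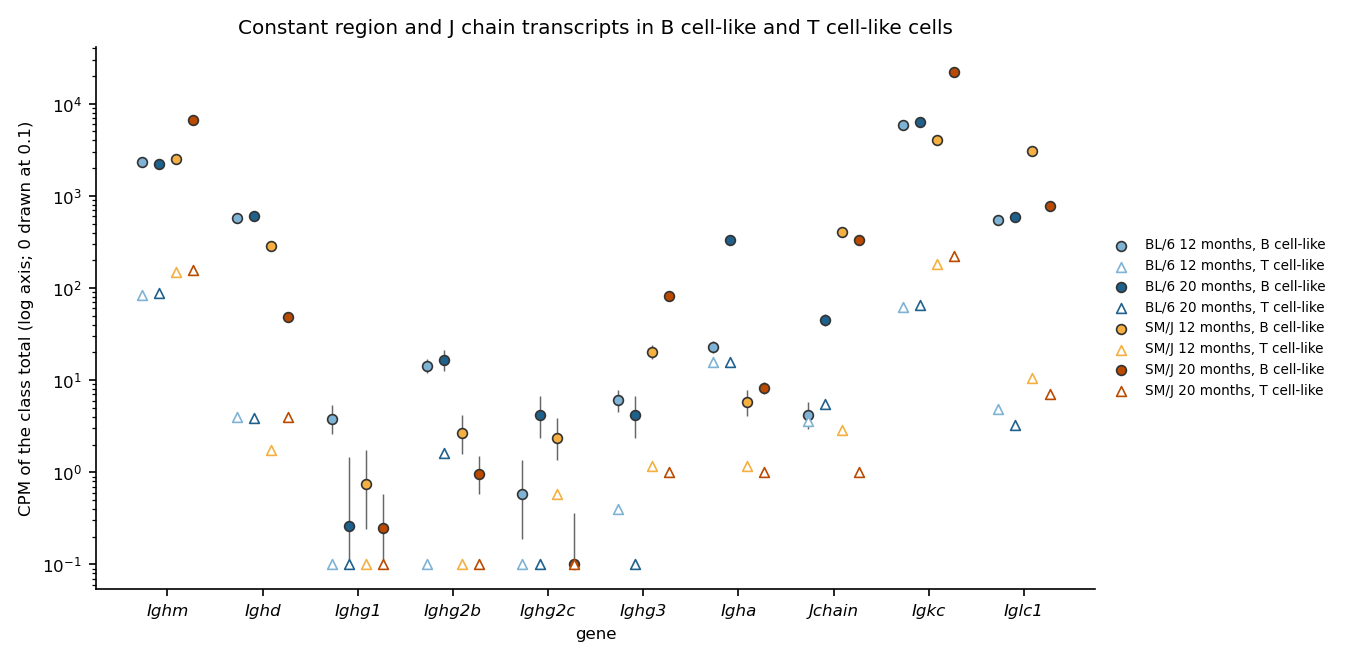
Level of each of the 10 transcripts (x axis) in CPM on a log axis, with filled circles for B cell-like cells and open triangles for T cell-like cells of the same dataset; bars are 95% counting intervals and values of 0 are drawn at 0.1. Ighd is lower and Ighg3 and Jchain are higher in both SM/J datasets than in the BL/6 ones. Iglc1 is highest in SM/J at 12 months, and Ighm and Igkc are highest in SM/J at 20 months. Igha is highest in BL/6 at 20 months (333 CPM) and near the T cell level in BL/6 at 12 months.

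IgM and IgD separated the strains with age. Ighm, the IgM heavy chain, stood at 2338 CPM in BL/6 at 12 months, 2228 in BL/6 at 20 months, 2504 in SM/J at 12 months and 6599 in SM/J at 20 months. Only the SM/J dataset of 20 months is apart, by 2.64-fold over its 12-month dataset (log2 ratio of CPM + 1 of 1.40, 1.37 to 1.42), against a log2 ratio of -0.07 in BL/6 (-0.11 to -0.03). Ighd, the IgD heavy chain, ran the other way at 572, 601, 289 and 48.1 CPM. It was 6.01-fold lower at 20 months in SM/J (log2 ratio -2.56, -2.67 to -2.45) and nearly level in BL/6 (0.07, 0.00 to 0.14). Leaving out clusters 25 and 18, the SM/J log2 ratios were 0.56 for Ighm and -0.61 for Ighd, neither past 1. The SM/J tag subsets did not overlap between ages, with Ighm at 2368 to 2654 and then 6191 to 6847 CPM and Ighd at 263 to 307 and then 40.02 to 56.2 CPM. The BL/6 tag subsets overlapped for both genes, with Ighd at 559 to 582 CPM at 12 months and 557 to 642 CPM at 20 months.

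The Ighd share of Ighm plus Ighd UMIs compares both genes in the same cells and does not depend on scaling. It was 19.7% in BL/6 at 12 months (19.2 to 20.2), 21.3% in BL/6 at 20 months (20.5 to 22.04), 10.4% in SM/J at 12 months (9.92 to 10.8) and 0.724% in SM/J at 20 months (0.679 to 0.771). The change with age was 1.60 percentage points in BL/6 (0.692 to 2.52) and -9.63 in SM/J (-10.1 to -9.20). The BL/6 tag subsets overlapped between ages (19.1% to 20.1% and 19.0% to 23.2%), and the SM/J tag subsets did not (10.0% to 10.5% and 0.642% to 0.814%). With a mitochondrial limit of 5% the BL/6 change was -1.18 points, so its direction is not settled.

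Within SM/J the share was lower at 20 months in each of the 3 clusters with 60 or more cells at both ages, and lowest in the clusters found mostly at 20 months. In cluster 8, which carries the follicular receptor gene Fcer2a (256 and 136 CPM), the IgD share was 34.2% at 12 months (32.7 to 35.8) and 23.2% at 20 months (21.3 to 25.2). Cluster 14 gave 4.18% and 2.71%, and cluster 23 gave 3.90% and 1.98%; the intervals of the ages did not overlap in any of these 3. In 2 smaller clusters the share was higher at 20 months with overlapping intervals. It was 36.0% and 43.7% in cluster 0 (42 and 21 cells) and 6.74% and 12.7% in cluster 7 (81 and 14 cells). It was lower with intervals apart in cluster 4, at 3.02% and 0.172% (19 and 12 cells). The same held for cluster 25, at 0.971% and 0.152% (15 and 872 cells). Cluster 25 at 20 months held 0.152% (0.128 to 0.1801) and the dividing cluster 18 held 0.118%. A UMI of Ighd was seen in 69.3% of the cells of cluster 8 at 20 months and in 11.6% of those of cluster 25, although the latter were deeper (median 12533 against 3075 UMIs). Thinned to 1000 UMIs a cell, the shares were 42.9% and 1.15%. Without clusters 25 and 18 the SM/J change was -5.70 points.

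BL/6 clusters also differed from each other more than the ages did. Cluster 0, with 325 and 309 CPM of Fcer2a, had an IgD share of 29.7% at 12 months (28.9 to 30.5) and 33.8% at 20 months (32.4 to 35.2). Cluster 7 had 19.4% (18.3 to 20.7) and 17.1% (15.9 to 18.4). Cluster 4, with 25.1 and 31.7 CPM of Fcer2a and with the B-1 cell transcription factor gene Bhlhe41 at 91.4 and 69.8 CPM, had 5.51% (5.02 to 6.04) and 7.62% (6.58 to 8.77). The intervals of the ages were apart in clusters 0 and 4, both higher at 20 months, and overlapped in cluster 7. Over the clusters of both strains with 60 or more cells in a dataset, clusters 0 and 8 had 5.91 to 22.2 CPM of Bhlhe41 and IgD shares of 23.2% to 34.2%. Clusters 4, 14, 18, 23 and 25 had 69.8 to 124 CPM of Bhlhe41 and IgD shares of 0.118% to 7.62%. Cluster 7 did not follow this split, with 18.6 to 19.9 CPM of Bhlhe41 and IgD shares of 6.74% in SM/J at 12 months and of 19.4% and 17.1% in BL/6. Fcer2a was at 1.16 CPM in cluster 25.

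**Figure D2:**
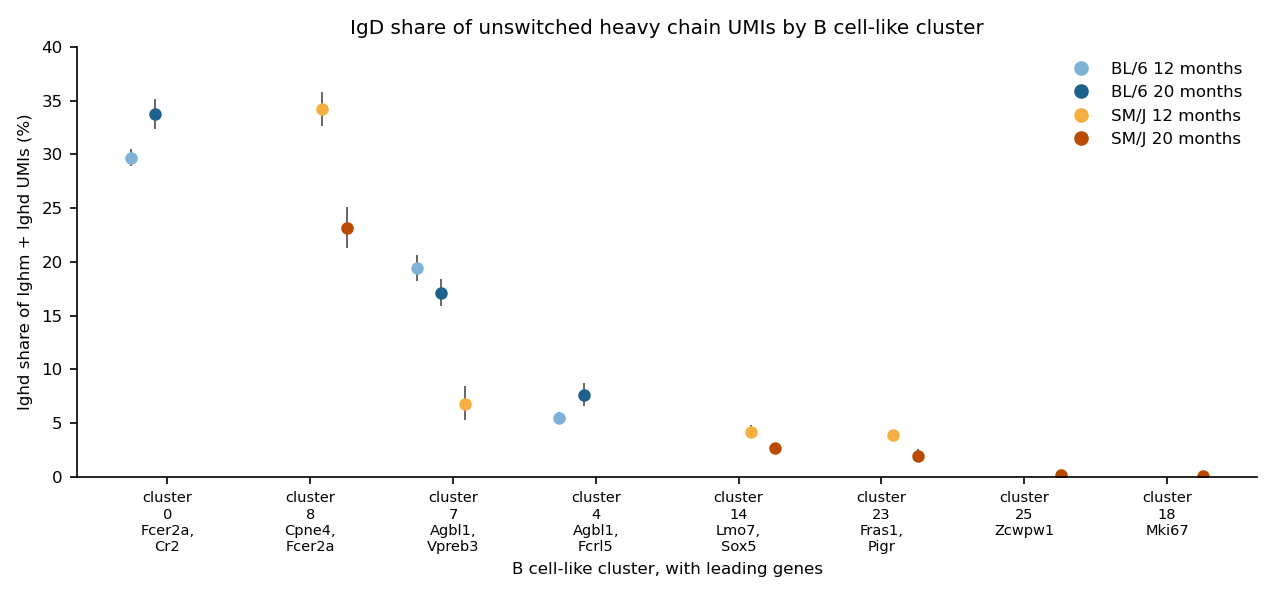
Share of Ighd in the summed Ighm and Ighd UMIs (y axis, percent) in each B cell-like cluster (x axis, with leading genes) and dataset, for clusters with 60 or more cells of that dataset; bars are exact 95% counting intervals. Shares run from 34.2% in cluster 8 of SM/J at 12 months to 0.118% in cluster 18, and the 20-month SM/J point is below the 12-month one in clusters 8, 14 and 23.

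Switched transcripts were rare in blood B cells. A cell was called switched with at least 3 UMIs of Ighg1, Ighg2b, Ighg2c, Ighg3 and Igha and more of these than of Ighm plus Ighd. By this call 16 of 2004 B cell-like cells were switched in BL/6 at 12 months (0.798%, 0.457 to 1.29), 27 of 955 in BL/6 at 20 months (2.83%, 1.87 to 4.09), 5 of 1285 in SM/J at 12 months (0.389%, 0.126 to 0.906) and 5 of 1638 in SM/J at 20 months (0.305%, 0.0992 to 0.711). The share was thus 2.03 points higher at 20 months in BL/6 (1.02 to 3.32) and differed by -0.084 points in SM/J (-0.631 to 0.380). The BL/6 tag subsets overlapped between ages, at 0.159% to 1.42% and then 1.23% to 3.79%. The BL/6 difference was 0.753 points when 10 switched UMIs were asked for and 1.14 with cells thinned to 2000 UMIs. With a gate on Cd79a that lets in plasma cell-like cells it was 4.51. Leaving the tag subset of 1 number out of every dataset at once, for each number in turn, gave 1.06 to 3.18. Without the subsets numbered 3 the difference was 1.06 and without those numbered 1 it was 3.18. Among T cell-like cells the call was met by 1 of 530 in BL/6 at 20 months and by none of the others.

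IgG-type cells were few at both ages. Ighg2b, the IgG2b heavy chain, was the leading switched gene of 11 cells in BL/6 at 12 months (4 to 13 UMIs each) and of 7 at 20 months (3 to 10 UMIs), but of 2 and 1 cells in SM/J. Its level was 14.4, 16.4, 2.67 and 0.954 CPM in the order of the datasets, which puts BL/6 above SM/J at both ages. At 20 months this rests on 63 UMIs in BL/6 and 19 in SM/J, under the 100 asked for in a comparison. Ighg1, the IgG1 heavy chain, was at 3.83, 0.261, 0.741 and 0.251 CPM, and 19 of its 33 UMIs in BL/6 at 12 months lay in 1 cell. Ighg2c, the IgG2c heavy chain, was at 0.580, 4.17, 2.37 and 0.1005 CPM, with 13 of the 16 UMIs of BL/6 at 20 months in 1 cell. Neither Ighg1 nor Ighg2c reached the 100 UMIs asked for in any comparison. Reads of SM/J alleles that differ from the reference can be lost in these genes, and that loss was not tested. Ighe, the IgE heavy chain, was at 0 UMIs in the B cells of every dataset.

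Ighg3, the IgG3 heavy chain, was highest in SM/J at 20 months. It stood at 6.03 CPM in BL/6 at 12 months, 4.17 in BL/6 at 20 months, 20.3 in SM/J at 12 months and 81.9 in SM/J at 20 months, against at most 1.16 CPM in T cell-like cells. The SM/J level was 4.03-fold higher at 20 months (log2 ratio 1.96, 1.72 to 2.21). Only 3 SM/J cells at 20 months were called Ighg3. The call asks for at least 3 switched UMIs and for more of these than of Ighm and Ighd. In cluster 25 Ighg3 reached 98.8 CPM and was seen in 60.2% of cells, with Ighm at 6914 CPM in the same cells. In the dividing cluster 18 it reached 105 CPM with Ighm at 9373 CPM. Its UMIs were spread over 601 cells, and the highest cell held 26. Elsewhere at 20 months the levels were 1.23 CPM in cluster 8, 10.3 in cluster 14 and 9.80 in cluster 23, and 158 CPM in the 12 cells of cluster 4, where 2 cells held all 16 UMIs. Without clusters 25 and 18 the log2 ratio was -0.59, opposite in sign to the value over all B cells.

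IgA was the switched isotype that set BL/6 at 20 months apart. Igha, the IgA heavy chain, was at 22.96 CPM in BL/6 at 12 months, 333 in BL/6 at 20 months, 5.78 in SM/J at 12 months and 8.24 in SM/J at 20 months, with an age log2 ratio for BL/6 of 3.80 (3.59 to 4.01) and for SM/J of 0.45 (-0.0005 to 0.90). T cell-like cells held 15.7, 15.7, 1.16 and 1.00 CPM in the same order, so both SM/J levels were low but above their own background, and BL/6 at 12 months was near it, so that the BL/6 ratio is taken against a level close to background. Of its 1275 UMIs, 1154 (90.5%) lay in 19 cells called IgA and 456 in the highest cell. The other B cells held 32.5 CPM. The 12-month dataset had 1 cell called IgA, with 3 UMIs. Of the 19 IgA cells 15 were in cluster 4, 16 had no UMI of Ighm or Ighd, 18 used kappa, and 9 also held Jchain. They came from all 3 tag subsets (3, 7 and 9 cells), whose B cell levels of Igha ran from 159 to 765 CPM.

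The 48 plasma cell-like cells were all IgA cells. Other settings moved cells into this class, with 44 IgA cells of 59 at a mitochondrial limit of 5% and 48 of 69 at a clustering resolution of 2. This cluster expressed all 8 plasma cell markers, led by Tnfrsf17 (the BCMA receptor gene) and Derl3, and had 3 cells from the younger BL/6 dataset, 43 from the older, 2 from SM/J at 12 months and none at 20 months. The 43 cells came from all tag subsets (9, 14 and 20). Igha made up 80.9% to 100% of the heavy chain UMIs of each of these 43 cells, with a median of 526 UMIs of Igha (178 to 1906). In the same 43 cells Jchain had a median of 213 UMIs (59 to 577) and Igkc of 1424 (1 to 4199). The counted constant regions and Jchain took a median of 18.6% of all UMIs of a cell (6.29% to 46.3%). The 3 cells of BL/6 at 12 months held 515, 654 and 1315 UMIs of Igha, and the 2 of SM/J held 302 and 445. Light chain use was kappa in 46 cells and lambda in 2, of which 1 was led by Iglc2 and 1 by Iglc1 (3466 UMIs). With 2 and 3 cells in the 12-month datasets, the isotype of plasma cells cannot be compared between ages.

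Most Jchain-rich cells were IgA cells in BL/6 and IgM cells in SM/J. In B cell-like cells it stood at 4.18 CPM in BL/6 at 12 months, 45.1 in BL/6 at 20 months, 403 in SM/J at 12 months and 334 in SM/J at 20 months. Both SM/J datasets exceeded both BL/6 ones, by 7.39-fold at 20 months. No fold is given for 12 months, where BL/6 is at about background. With age the log2 ratio was 3.16 in BL/6 (2.71 to 3.61), against that background level, and -0.27 in SM/J (-0.34 to -0.21). A UMI was seen in 1.60%, 3.56%, 29.4% and 21.6% of the B cells, or in 0.599%, 1.47%, 13.5% and 7.09% after thinning to 1000 UMIs, with T cell-like cells at 0% to 0.836% after thinning.

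In BL/6 at 20 months most Jchain of B cells lay in the IgA cells, where 124 of 173 UMIs (71.7%) were found, and the other B cells held 13.2 CPM. At 12 months none of the 36 UMIs lay in the cell called IgA. In SM/J no B cell was called IgA. There the level was broad in cluster 23, where 81.4% of the cells at 12 months held a UMI (677 CPM) and 41.8% at 20 months (206 CPM), and it was 357 CPM in cluster 25. A few cells also carried much of it: those with at least 5000 CPM of Jchain, a limit chosen after the values were seen, were 7 of 1285 B cells at 12 months with 38.0% of the Jchain UMIs and 18 of 1638 at 20 months with 57.5%. Without the Fras1-led cluster 23 the SM/J change with age was 0.94 instead of -0.27, and with a mitochondrial limit of 5% it was 1.05, so its sign is not settled. A gate on Cd79a in place of clusters, which lets in plasma cell-like cells of BL/6, gave -2.24 for SM/J over BL/6 at 20 months.

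These Jchain-rich B cells were IgM cells. The 7 cells of 12 months held 27 to 395 UMIs of Ighm (median 160) and the 18 of 20 months held 237 to 1306 (median 732), none held a UMI of Igha, and 1 of the 25 held a UMI of Ighd. Light chains were lambda in 6 of the 7 and kappa in all 18. Of the 18 cells 14 were in cluster 25, and of the 7 cells 4 were in cluster 23. The 8 plasma cell markers helped to name the clusters but were not used to pick these cells within the B cell-like class. All 8 were higher than in the other B cells at 12 months and 7 at 20 months. The exception at 20 months was Prdm1, at 52.1 against 53.8 CPM. Of all genes with 100 or more UMIs, 40.9% and 25.2% were higher in the Jchain-rich cells. Both counts rest on few UMIs for some markers, with 1 of Tnfrsf17 and 5 each of Sdc1 and Derl3 at 12 months, and 3 of Tnfrsf17 and 6 of Sdc1 at 20 months. Derl3, an endoplasmic reticulum degradation factor, was at 247 against 18.04 CPM at 20 months and Xbp1, the secretory transcription factor, at 726 against 82.1 CPM. All 8 B cell markers were lower in them at both ages, with Pax5, the B cell identity factor, at 20.8 against 196 CPM at 20 months. Most genes were likewise not higher in these cells, given the 40.9% and 25.2% above, so a lower value was the common case. The clustering nevertheless left these 25 cells among B cell-like cells. In BL/6 every cell at or above 5000 CPM was an IgA plasma cell-like cell, 3 at 12 months and 42 at 20 months. SM/J at 12 months also had 2 such IgA plasma cell-like cells beside its 7 IgM cells.

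**Figure D3:**
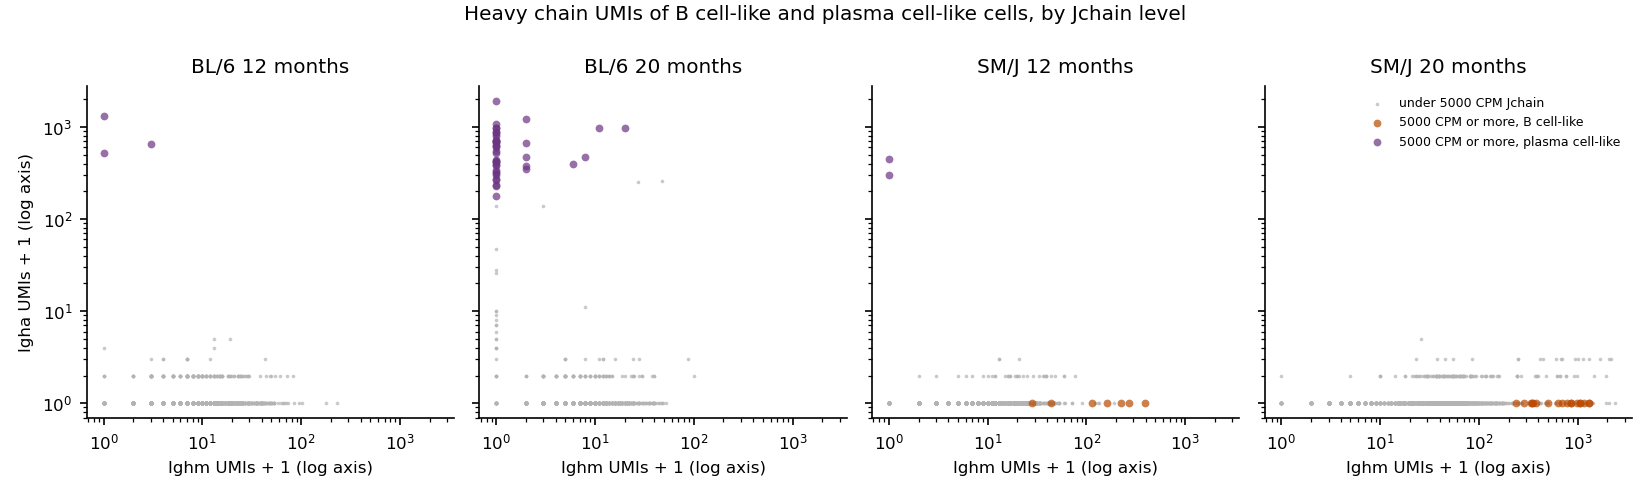
UMIs of Ighm (x axis) against UMIs of Igha (y axis), each plus 1 on log axes, for every B cell-like and plasma cell-like cell of a dataset; large points are cells with 5000 CPM or more of Jchain. In BL/6 these points lie high on Igha (3 and 42 plasma cell-like cells), and in SM/J the 7 and 18 B cell-like ones lie along Ighm with no Igha, beside 2 plasma cell-like cells high on Igha at 12 months.

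Light chain class in SM/J B cells differed between the ages. Igkc, the kappa constant region, was at 5931 CPM in BL/6 at 12 months, 6290 in BL/6 at 20 months, 4066 in SM/J at 12 months and 22236 in SM/J at 20 months. Iglc1, the lambda 1 constant region, was at 543, 596, 3039 and 777 CPM. In SM/J the kappa level was 5.47-fold higher and the lambda 1 level 3.91-fold lower at 20 months (log2 ratios 2.45 and -1.97), beside log2 ratios of 0.08 and 0.13 in BL/6. Leaving out clusters 25 and 18, the SM/J values were 0.98 and -2.70. Without cluster 23 they were 1.78 and -0.66, and without all 3 clusters 0.32 and -1.34, so whether either gene passed a log2 ratio of 1 depends on these clusters. Iglc2 stood between 1288 and 1682 CPM and Iglc3 between 541 and 714 CPM in all 4 datasets.

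A cell with at least 10 light chain UMIs was called lambda where Iglc1, Iglc2 and Iglc3 together exceeded Igkc. Lambda cells were 222 of 1932 in BL/6 at 12 months (11.5%, 10.1 to 12.997), 110 of 922 in BL/6 at 20 months (11.9%, 9.91 to 14.2), 516 of 1243 in SM/J at 12 months (41.5%, 38.8 to 44.3) and 75 of 1620 in SM/J at 20 months (4.63%, 3.66 to 5.77). The change was -36.9 points in SM/J (-39.8 to -33.9) and 0.440 in BL/6 (-2.01 to 3.06). With the 3 lambda genes together, many cells lay near the cut. Of the typed cells of a dataset, 41.4% to 67.9% had a lambda share between 0.2 and 0.8. For Iglc1 against Igkc alone, 126, 68, 226 and 49 typed cells lay in that range, in the order of the datasets. Cells called kappa also held 1115 to 1675 CPM of Iglc2 and 564 to 684 CPM of Iglc3. With Iglc1 as the only lambda gene, a choice made after the data were seen, the shares were 4.61%, 3.04%, 35.2% and 1.42%.

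Cluster 23 held most of the lambda cells of SM/J at 12 months. There 402 of its 407 typed cells were lambda (98.8%), 397 of them led by Iglc1, with Iglc1 at 5187 CPM and Igkc at 976 CPM. At 20 months its 90 typed cells were 10.0% lambda, with Iglc1 at 327 CPM and Igkc at 5945 CPM, so the 91 cells placed in this cluster at that age carried mostly kappa. All 3 tag subsets contributed at 12 months (124, 129 and 157 cells). Without cluster 23 the SM/J change was -9.32 points, and with a mitochondrial limit of 5% it was -16.5. In the other SM/J clusters of both ages the lambda share was 12.0% and 8.51% in cluster 8 and 15.3% and 9.75% in cluster 14.

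Cluster 25 was kappa. Of 870 typed cells 1.15% were lambda, with Igkc at 25507 CPM, a median cell at 15111 CPM, and Ighm at 6914 CPM. Cluster 8 of the same dataset stood at 6461 CPM of Igkc, cluster 14 at 5703 and cluster 23 at 5945. All 3 tag subsets held the cells (271, 299 and 302). The light chain variable segment that led in most cells with one was Igkv14-126 in cluster 25 (381 of 786 cells, 48.5%) and Iglv2 in cluster 23 at 12 months (96 of 202, 47.5%), against Igkv2-109 in cluster 23 at 20 months (15 of 61, 24.6%). In cluster 0 of BL/6 at 12 months the leading segment, Igkv1-117, led in 34 of 476 cells (7.14%).

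**Figure D4:**
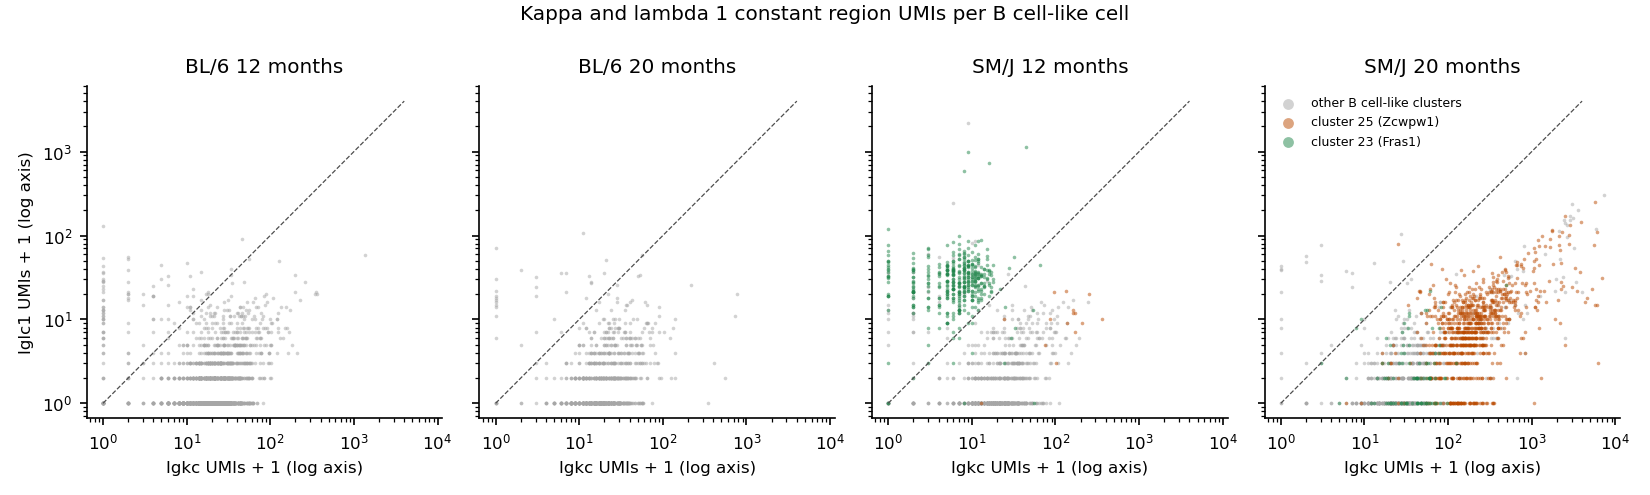
UMIs of Igkc (x axis) against Iglc1 (y axis), each plus 1 on log axes, for every B cell-like cell of the 4 datasets; the dashed line marks equal counts, green points are cluster 23 and orange points cluster 25. In SM/J at 12 months 395 of the 413 green cells lie above the line, at 20 months 1 of 91 does, and the orange cells reach the highest Igkc counts.

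Set against all genes, the counts of changed members differed by comparison. A gene with at least 100 UMIs was counted as higher or lower past a log2 ratio of 1. For 20 over 12 months in BL/6, 2 of 7 members tested were past it, Igha and Jchain, both higher, where 0.932% of 8157 genes were (0.405% higher and 0.527% lower). For SM/J 5 of 7 were past it, with Ighm, Ighg3 and Igkc higher and Ighd and Iglc1 lower, where 10.7% of 9751 genes were (5.88% higher and 4.86% lower). Without clusters 25 and 18 the SM/J count was 1 of 6, Iglc1, where 1.51% of 7591 genes were. For SM/J over BL/6 at 12 months 5 of 8 were past it against 7.85% of genes. Ighg3, Jchain and Iglc1 were higher (3.59% of genes) and Ighg2b and Igha lower (4.26%), with Jchain and Igha of BL/6 at 12 months close to background. Fewer members were past it at this age with a mitochondrial limit of 5% or with a pseudocount of 10 CPM. At 20 months 6 of 7 were past it against 25.4%. Ighm, Ighg3, Jchain and Igkc were higher (11.5%) and Ighd and Igha lower (13.9%), and without clusters 25 and 18 the count was 3 of 6 (Ighd, Igha and Jchain) against 8.61% of 6931 genes. The median over the members was 0.13, 0.45, -0.22 and 1.57 in these comparisons, beside 0.05, -0.05, -0.10 and -0.16 over all genes. TMM scaling would add 0.17 to every ratio of the SM/J ages and 0.29 to those of the strains at 20 months, and would shift the others by under 0.1. Comparisons that share a dataset are not independent.

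Genes that act on these transcripts were read from a list of 20. Of the 13 tested with age in BL/6, none was past the limit (median -0.05). Of the 17 tested in SM/J, 5 were higher and 3 lower at 20 months (median 0.29), where 10.7% of all genes were past it. Among the higher ones were Xbp1 (22.2 to 91.4 CPM), the secretory regulator Prdm1 (21.9 to 53.8), the immunoglobulin chaperone gene Mzb1 (598 to 1239) and Derl3 (2.37 to 21.3). The lower ones were Zfp318, a factor needed for Ighd transcripts (81.2 to 20.7 CPM), Fcmr, the IgM Fc receptor (461 to 64.3), and Fcer2a, the low-affinity IgE receptor CD23 (82.4 to 8.94). The same 8 genes were past the limit in the same directions for SM/J over BL/6 at 20 months, which shares the SM/J dataset, where 25.4% of all genes were past it. At 12 months it was passed by 2 of 14, Prdm1 higher and Fcer2a lower, and by 7.85% of all genes.

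The genes most like each member were ranked by Pearson correlation of log2(CPM + 1) over 17 units, each a B cell-like or plasma cell-like cluster within a dataset with 30 or more cells, among 5592 genes. Ighd was followed most closely by Arhgef18 (r = 0.98), Gm12158 (0.98) and Stk17b (0.98), and among the genes closest to Ighm were Rac2 (0.97) and Prkca (0.94). Jchain was followed by Sub1 (0.92) and S100a10 (0.92), Igkc by Rrbp1 (0.91), Igha by Cd48 (0.90) and Iglc1 by Mxi1 (0.87). The units share datasets and depth, and without the plasma unit the value for Igha and Cd48 was 0.77. Ighg1, Ighg2b, Ighg2c and Ighg3 had a mean under 20 CPM over these units and were not ranked.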

How the data were processed

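The deposited values are raw UMI counts, 1 per gene and barcode, and per the file headers the authors made them with Cell Ranger 7.0.1. The submitters' processing notes name mm10 and Seurat 4.3.0. The rest of the processing was done here. Cells with at least 500 UMIs, 200 genes and at most 10% mitochondrial UMIs were kept, and 125 doublets called by Scrublet (scanpy 1.11.5, expected rate 0.06) were left out, giving 11596 of 12299 cells. No barcode was shared between the ages of a run, and 8 were shared between strains. Clusters came from 2000 variable genes without immunoglobulin genes and Jchain, 30 principal components, 15 neighbours and Leiden resolution 1 (seed 0), and were named from markers of 13 classes. For each class of cells in a dataset, UMIs were added up and expressed as CPM of that sum. Ratios are log2 of CPM + 1 with conditional binomial intervals, shares have Clopper-Pearson and differences Newcombe intervals. UMIs of 1 cell are not independent, so these intervals are narrow. Alternatives included TMM scaling (edgeR 4.0.16) and leaving the tag subset of 1 number out of every dataset at once. All 10 genes were named by rule, and the ratios were tested on simulated data. Coordinates and coding bases are from GENCODE of the same build, with gene identifiers matching for all members. The genes and lists were chosen with earlier results of these data known. The 2 deposited tag samples were used only through the tag counts in the tables. A few genes of the lists are not reported here.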

Additional observations from a re-analysis of the deposited data

Results flagged for a closer look

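Among the members with at least 100 UMIs and the 3 shares of the report, the change with age in 4 results went opposite ways in the strains, with counting intervals that excluded 0 in both. The difference was not tested. For Ighm, the log2 ratio of 20 over 12 months in SM/J minus that in BL/6 was 1.47. For Jchain it was -3.43 and for Iglc1 -2.10. For the IgD share of IgM plus IgD UMIs, the change in SM/J minus that in BL/6 was -11.2 percentage points. The BL/6 log2 ratios alone were small, at -0.07 for Ighm and 0.13 for Iglc1. Tag subsets overlapped between ages in BL/6 for Ighm, Iglc1 and the IgD share, and in SM/J for Jchain, so these directions are not settled. With a mitochondrial limit of 5% both strains went the same way for 2 of the 4 results. IgD was at -1.18 points in BL/6 and -14.1 in SM/J, and Jchain was at 4.01 and 1.05.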

How the results depend on the processing

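No paired analysis was possible because each strain and age is 1 dataset and tag numbers pair nothing across datasets. With a mitochondrial limit of 5% (2526 B cells), the IgD share changed by -1.18 points in BL/6 and -14.1 in SM/J, lambda cells in SM/J by -16.5, and Jchain by 4.01 in BL/6 and 1.05 in SM/J (log2), with 2 members past the limit between strains at 12 months. A gate on Cd79a, which admits 24 plasma cell-like cells, gave switched cells 4.51, Jchain 4.83 and 4 members past the limit in BL/6, IgD -10.1 and Jchain -0.39 in SM/J, and Jchain at -2.24 for SM/J over BL/6 at 20 months. Jchain was -0.92 in SM/J at resolution 2.0, 2.58 in BL/6 with the members among the variable genes, -0.10 in SM/J with TMM scaling, and 1.96 in BL/6 with a pseudocount of 10 CPM, which left 3 members past the limit between strains at 12 months. At least 10 switched UMIs gave 0.753 points in BL/6. Lambda cells in SM/J changed by -47.1 points with 30 light chain UMIs and by -26.4 with lambda at least 4 times Igkc, which gave -2.48 in BL/6. A minimum of 20 UMIs gave 4 of 10 members with age in BL/6, where 2.19% of 11248 genes were past the limit. The causes were not tested, and where no share of all genes stands beside a count of members, none was computed for that setting.

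Alternatives added after seeing the data were leaving out clusters, Iglc1 alone and thinning. Without clusters 25 and 18, SM/J gave IgD -5.70, lambda -32.5 and Ighg3 -0.59. Past the limit were then 1 of 6 members with age (1.51% of 7591 genes) and 3 of 6 between strains at 20 months (8.61% of 6931 genes). Without cluster 23 SM/J gave IgD -14.7, lambda -9.32 and Jchain 0.94. Without all 3 it gave IgD -10.8, lambda -4.44, Jchain 1.01, and 3 and 3 members. Thinned to 2000 UMIs, SM/J gave IgD -12.5 and lambda -32.8. The tag subset of 1 number was also left out of every dataset at once, for each number in turn. For BL/6 and then SM/J this gave IgD 0.531 to 3.41 and -9.75 to -9.54, and switched cells 1.06 to 3.18 and -0.185 to 0.052. It gave lambda -0.418 to 0.809 and -38.9 to -33.8, and Jchain 2.93 to 3.34 and -0.507 to -0.052. Members past the limit were 2, 5, 4 to 6 and 6. No unnamed B cluster existed to add. Beside the age ratios of Jchain given above, 418 member ratios were recomputed: 259 stayed within the counting interval of the reported ratio and 157 left it. The other 2, Ighg3 in SM/J and Jchain between strains at 20 months, had passed a log2 ratio of 1 and changed sign.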

Other observations

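Plasmacytoid dendritic cell-like cells, which are not B cells, held more Ighm and Iglc3 than T cell-like cells. Ighm was at 405, 276, 631 and 403 CPM in BL/6 at 12 and 20 months and SM/J at 12 and 20 months, and Iglc3 at 148, 112, 582 and 195 CPM, where T cell-like cells had 2.61 to 7.00 CPM of Iglc3. Igha in these cells was at 20.7, 14.04, 0 and 0 CPM.

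Macrophage-like cells of SM/J at 20 months held 1833 CPM of Igkc. A single one of the 398 cells held 9446 UMIs of Igkc, 34.9% of its UMIs, with 738 of Ighm and 113 of Jchain, and without it the level was 183 CPM.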
